A study of Mus musculus with 12 samples.

Results

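Zfp genes encode zinc finger proteins, and the 114 described here are those that were counted well in mouse embryonic fibroblasts, connective tissue cells grown from mouse embryos. They are the protein-coding genes whose symbol is Zfp followed by digits alone, with at least 200 counts summed over all 12 libraries. Zfp36 is left out by this rule because it encodes a zinc finger of another type, which binds RNA. Of the 363 genes with such a symbol, 249 had fewer than 200 counts, and the files list 21409 protein-coding genes among 55536 gene IDs. Members were thus chosen by their summed counts, which are given only as a description. Totals ran from 201 to 4184 counts with a median of 405.5. Zfp809 with 201, Zfp697 with 205 and Zfp770 with 206 counts were the 3 members nearest the minimum, and Zfp850 with 198, Zfp7 with 196 and Zfp386 with 187 counts were the 3 genes just below it. The sum includes the libraries of treated cells, so a gene that is higher there reaches the minimum more easily.

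Most Zfp genes encode DNA-binding proteins built from an array of C2H2 fingers, small loops in which a pair of cysteines and a pair of histidines hold a zinc ion. Many of them also carry a KRAB domain, which recruits Trim28 and, through it, histone methylation and heterochromatin proteins, and which is best known for silencing retroelements and guarding imprinted genes. Others have no KRAB domain and activate promoters, bind RNA, or act in ribosome assembly and protein turnover. The symbol records a zinc finger and not a shared function.

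The treated cells received 100 nM halofuginone (HF) for 6 h in high-glucose medium with dialyzed serum. The control cells were kept for 6 h in the same medium without HF. HF inhibits Eprs, the enzyme that charges prolyl-tRNA, and uncharged tRNA is known to activate the kinase GCN2, which the title of the study names. Total RNA and ribosome footprints (fragments protected by ribosomes, RPF) were sequenced from 3 libraries of HF cells and 3 of control cells for each assay. All groups share the fibroblasts, the medium and the dialyzed serum, and no strain, passage or immortalization is given in the labels. The labels do not say that the 3 libraries of a group came from separate cultures, so p-values measure the spread between libraries, which may be technical.

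Library totals were 1017651 to 1697554 counts in RNA of HF cells and 718096 to 1295434 in RNA of control cells. Footprint libraries held 562794 to 1958356 counts in HF cells and 724609 to 2527791 in control cells. Low counts were mostly even. RNA control 1, for example, had 1541 genes at 2 counts and 419 at 1 count. Of 12 fibroblast markers, Lum had no count in any library, and the summed level of the list was 9670 to 10020 CPM in RNA of HF cells and 8021 to 8351 CPM in RNA of control cells. CPM are counts scaled to a common library size with TMM factors. In footprints the same sum was 12621 to 12996 CPM in HF cells and 16188 to 17182 CPM in control cells. The sum in RNA is led by Fn1, at 4979 CPM in HF cells and 1540 CPM in control cells, while of the 8 markers tested 2 were higher and 4 lower in RNA (median log2 fold change -0.43), and of 9 tested in footprints 2 were higher and 5 lower. Among markers of other cells, Krt8 and Cldn4 of 6 epithelial genes were at 0, and the sum of that list was 195 to 201 CPM in RNA of HF cells and 71.9 to 87.2 CPM in RNA of control cells. Only 1 of the 6 had enough counts to be tested in RNA. In footprints the epithelial sums overlapped, at 217 to 377 CPM in HF cells and 233 to 289 CPM in control cells. Of 5 endothelial genes Pecam1, Tek and Emcn were at 0, and 4 of 7 blood genes and 4 of 5 pluripotency and germ cell genes were at 0 too. The endothelial sum was 5.28 to 15.7 CPM in RNA of HF cells and 0 to 1.61 CPM in RNA of control cells. In footprints it was 3.35 to 12.4 CPM in HF cells and 0 to 4.05 CPM in control cells. No endothelial gene had enough counts to be tested. All 5 neural genes had counts, mostly of Nes, and their sum was 318 to 351 CPM in RNA of HF cells and 321 to 361 CPM in RNA of control cells, while in footprints it was 315 to 402 CPM in HF cells and 387 to 435 CPM in control cells. The 4 muscle genes had no RNA count. The part of these marker differences in the results below was not tested. In such bulk samples, fewer cells of a type and less RNA per cell cannot be told apart.

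The 114 genes together took a larger share of the counts in HF cells than in control cells, in both assays. In total RNA they held 0.577%, 0.629% and 0.589% of the counts in the HF libraries, against 0.414%, 0.426% and 0.445% in the control libraries. In footprints they held 0.491%, 0.495% and 0.483% in HF libraries, against 0.336%, 0.344% and 0.340% in control libraries. No HF library overlapped the control range in either assay. Means were 0.598% ± 0.0272 in HF RNA, 0.428% ± 0.0160 in control RNA, 0.489% ± 0.00584 in HF footprints and 0.340% ± 0.00366 in control footprints (SD, n = 3 each). With 3 libraries against 3, an exact permutation test cannot go below 0.10, so no p is given for these shares. A single noncoding gene, Gm42418, held 7.35% to 9.48% of the RNA counts in HF cells and 11.8% to 13.7% in control cells, and its share moves that of every other gene. In footprints Gm42418 held 0.0634% to 0.10% of the counts in HF cells and 0.0933% to 1.12% in control cells. Its part in the shares of the Zfp genes was not tested.

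**Figure D1:**
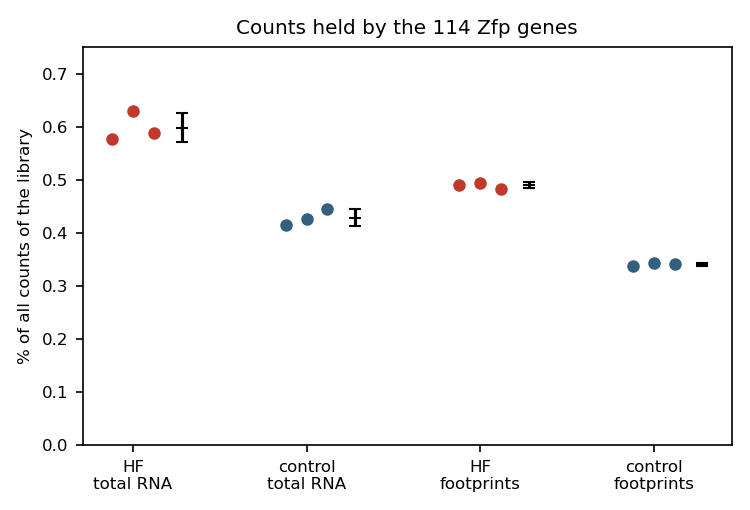
Share of all counts held by the 114 Zfp genes in each library, in percent, for total RNA and footprints. Points are libraries and bars are the mean and SD of 3; every HF library lies above every control library of its assay.

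In total RNA, 105 of the 114 genes had enough counts to be tested, and 36 of them were higher and 7 lower in HF cells. That is 34.3% higher and 6.67% lower, where 43.7% of all 9145 genes tested were called, 22.2% higher and 21.4% lower. The test was edgeR's quasi-likelihood test over all genes, with a call at a Benjamini-Hochberg adjusted p under 0.05. At least 2-fold changes were called for 26 genes that were higher and 3 that were lower, against 11.8% and 9.71% of all genes tested. The median log2 fold change of HF over control was 0.47, where that of all genes tested was -0.02, and values ran from -2.06 to 3.35. Of the 105 genes, 77 had a positive and 28 a negative value. HF libraries lay above all control libraries for 44 of the tested genes and below them for 13, where this held for 25.9% and 25.5% of all genes tested. With no spike-in described, every change here is measured against the bulk of genes. Of the 105, 2 reached the minimum level of the filter in no control library and 0 in no HF library, and 84 reached it in all 6 libraries, of which 27 were higher and 5 lower. The 2 are Zfp715 and Zfp948, which passed the filter through HF libraries alone and were both among the 36, so their RNA values below are given without a test. Other members under that level in some control libraries could reach the test through high HF values. The number of genes called lower was 4 without RNA HF replicate 1.

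**Figure D2:**
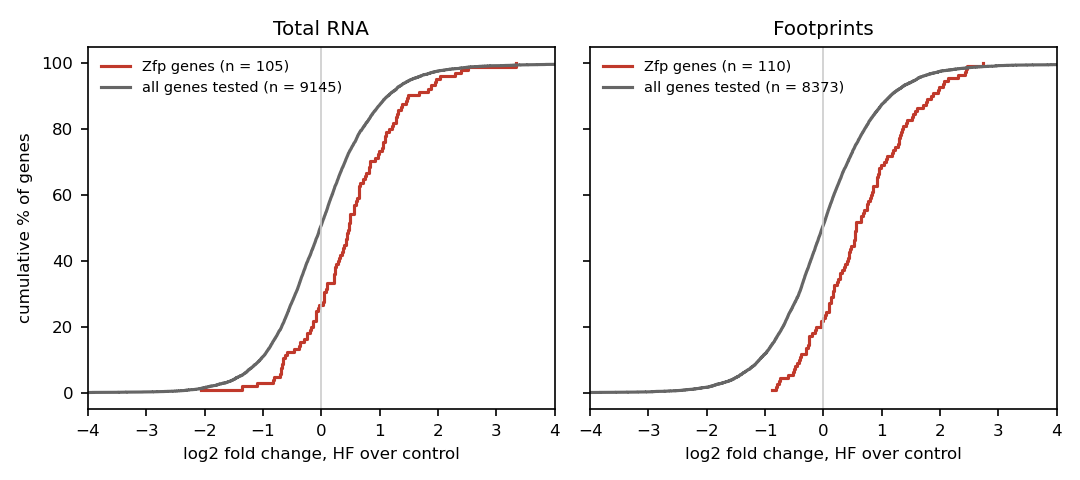
Cumulative share of genes against the log2 fold change of HF over control, for the tested Zfp genes and for all genes tested, in total RNA and in footprints. The curves of the Zfp genes lie to the right, with medians of 0.47 in RNA and 0.56 in footprints, where those of all genes are -0.02 in each.

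Zfp655 had the largest fold change of all members in footprints and the second largest in RNA. Its human counterpart is known as an interactor of the signalling protein Vav. The gene lies at chr5:145231595-145247306 (GRCm38) and overlaps Gm6287. Its RNA reached 139, 200.4 and 159.5 CPM in HF cells, against 30.6, 31.0 and 25.2 CPM in control cells. HF libraries were all far above the control libraries (log2 fold change 2.52, SE 0.21, adjusted p = 1.7e-16). Its footprints moved alike, with 212, 226 and 199 CPM in HF cells, against 34.1, 28.2 and 33.7 CPM in control cells (log2 fold change 2.73, SE 0.18, adjusted p = 7.2e-14).

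Zfp948 had the highest fitted RNA fold change of the members, though on few control reads. RNA values were 36.9, 58.9 and 41.2 CPM in HF cells, against 8.86, 2.82 and 0 CPM in control cells, and the control values rest on 11, 2 and 0 counts. The HF libraries stood clear of the control libraries, and the fitted log2 fold change was 3.35, but it is loose: without RNA control replicate 1 it was 5.10. All control values lie under the minimum of 9.15 CPM that the filter asks of a library. Footprints, which passed the filter in both groups, rose, with 88.9, 82.0 and 96.7 CPM in HF cells, against 19.1, 15.3 and 11.2 CPM in control cells (log2 fold change 2.46, SE 0.26, adjusted p = 3.7e-09). Zfp948 lies on chromosome 17 beside Zfp52 and Zfp53, which had too few RNA counts to be tested.

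Zfp110 and Zfp408 rose in both assays, and Zfp715 in footprints. Zfp715 RNA was at 29.0, 36.3 and 23.0 CPM in HF cells, against 8.05, 5.64 and 2.1 CPM in control cells, with a fitted log2 fold change of 2.40 and every control value under the minimum of the filter. Its footprints were at 53.5, 43.5 and 37.9 CPM in HF cells, against 10.5, 7.97 and 8.43 CPM in control cells (log2 fold change 2.31, SE 0.35, adjusted p = 2.9e-06). In each assay the lowest HF library of Zfp715 exceeded the highest control library. Zfp110 encodes Nrif, which binds the neurotrophin receptor p75. Zfp110 RNA was at 58.0, 23.6 and 46.5 CPM in HF cells, against 5.64, 5.64 and 14.7 CPM in control cells (log2 fold change 2.30, SE 0.41, adjusted p = 3.9e-06), and without RNA control replicate 3 the log2 fold change was 2.91. Zfp110 footprints were at 63.6, 65.2 and 60.7 CPM in HF cells, against 20.7, 17.8 and 11.2 CPM in control cells (log2 fold change 1.84, SE 0.29, adjusted p = 3.6e-06). The HF libraries again lay above all control libraries, with a wide spread in HF RNA. Zfp408, whose human counterpart is mutated in inherited retinal vessel disease, had RNA at 36.9, 50.1 and 27.1 CPM in HF cells, against 12.1, 12.7 and 4.2 CPM in control cells (log2 fold change 1.95, SE 0.42, adjusted p = 8.2e-05). Zfp408 footprints were at 45.6, 33.5 and 34.1 CPM in HF cells, against 5.68, 11.0 and 2.81 CPM in control cells (log2 fold change 2.45, SE 0.42, adjusted p = 1.7e-05), again without overlap. Some control values of Zfp110 RNA lie under the filter's minimum of 9.15 CPM. So do some of Zfp715 and Zfp408 footprints, where the minimum is 8.73 CPM. These genes needed their HF libraries, where they are high, to be tested, which limits these tests.

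**Figure D3:**
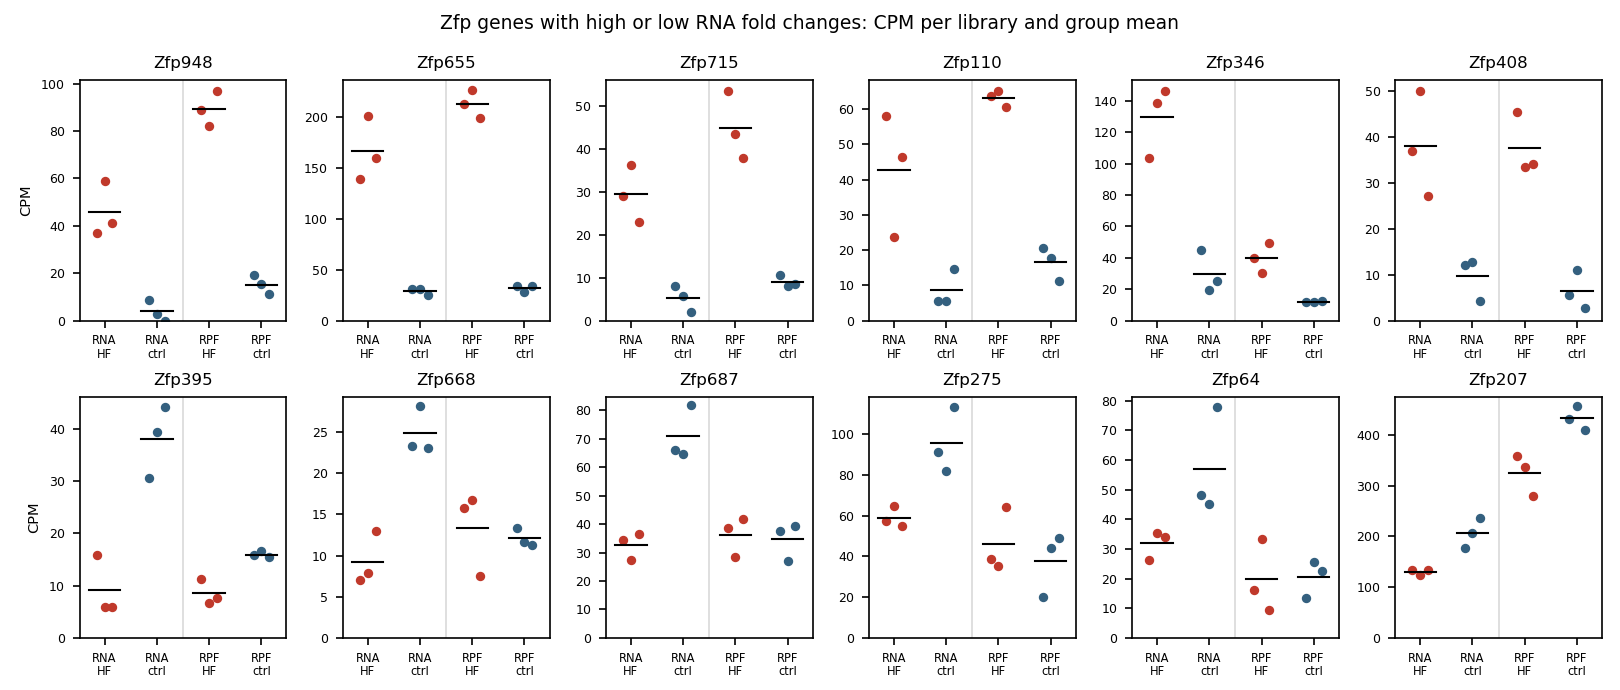
Level in CPM of 12 Zfp genes in each library, in total RNA and in footprints, with HF to the left of control and a line at each mean of 3. Zfp948, Zfp655, Zfp715, Zfp110, Zfp346 and Zfp408 are higher in all HF libraries of both assays; Zfp395, Zfp668, Zfp687, Zfp275, Zfp64 and Zfp207 are lower in all HF RNA libraries, and of these Zfp395 and Zfp207 also lie lower in all HF footprint libraries.

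Promoter sequence was looked up because many of these genes moved together. Promoter sequences of GRCm38.p6, each 300 bases long, were matched for 90 of the 114 genes and gave 118 sequences. Some lie inside the annotated gene and not at its start. That of Zfp948 begins at 21566728, where the gene begins at 21565816. Those of the 5 genes described so far are shown, with capitals at matches of the ETS core CCGGAAG on either strand.
Zfp655, chr5:145231492-145231791, plus strand: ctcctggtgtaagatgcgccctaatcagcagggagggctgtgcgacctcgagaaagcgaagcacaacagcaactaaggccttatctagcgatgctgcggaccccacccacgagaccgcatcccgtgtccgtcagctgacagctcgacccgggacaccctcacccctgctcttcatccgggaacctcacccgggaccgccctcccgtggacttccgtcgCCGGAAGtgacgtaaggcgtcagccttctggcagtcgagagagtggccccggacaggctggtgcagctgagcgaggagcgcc
Zfp110, chr7:12834511-12834810, plus strand: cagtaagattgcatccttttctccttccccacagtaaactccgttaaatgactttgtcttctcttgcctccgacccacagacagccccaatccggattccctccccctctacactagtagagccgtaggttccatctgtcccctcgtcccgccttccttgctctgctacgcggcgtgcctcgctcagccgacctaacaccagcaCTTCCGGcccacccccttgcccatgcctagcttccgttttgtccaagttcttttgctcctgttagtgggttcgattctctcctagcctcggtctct
Zfp408, chr2:91649742-91650041, minus strand: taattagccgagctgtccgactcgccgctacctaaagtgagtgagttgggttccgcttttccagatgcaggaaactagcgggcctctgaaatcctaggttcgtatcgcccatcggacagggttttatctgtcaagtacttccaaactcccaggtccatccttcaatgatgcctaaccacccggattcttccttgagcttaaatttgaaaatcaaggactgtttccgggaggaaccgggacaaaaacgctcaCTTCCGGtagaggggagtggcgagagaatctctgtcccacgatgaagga
Zfp948, chr17:21566728-21567027, plus strand: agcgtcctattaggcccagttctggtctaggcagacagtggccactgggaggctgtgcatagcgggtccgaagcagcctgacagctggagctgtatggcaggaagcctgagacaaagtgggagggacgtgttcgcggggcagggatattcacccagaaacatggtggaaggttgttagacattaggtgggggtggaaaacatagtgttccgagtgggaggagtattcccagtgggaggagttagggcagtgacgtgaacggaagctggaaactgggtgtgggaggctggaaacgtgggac
Zfp715, chr7:43313251-43313550, minus strand: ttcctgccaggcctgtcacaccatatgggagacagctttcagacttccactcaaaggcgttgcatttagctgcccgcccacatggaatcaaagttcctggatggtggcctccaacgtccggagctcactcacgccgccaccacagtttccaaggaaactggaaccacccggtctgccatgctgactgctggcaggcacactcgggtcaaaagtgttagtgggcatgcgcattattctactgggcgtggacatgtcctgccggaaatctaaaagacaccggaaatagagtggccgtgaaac
Zfp655, Zfp110 and Zfp408 each hold 1 ETS match, and Zfp948 and Zfp715 hold none. Zfp346, Zfp622 and Zfp81, also named for their high RNA fold changes, are not shown. Their promoters hold no ETS match either. Zfp110 also holds a CCAAT box, left in lower case.

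Besides the ETS core, both strands were searched for the letters CCAAT, for the E-box CACGTG and for the cAMP response element (CRE) TGACGTCA. The composite site of ATF and C/EBP factors was read as TGATGNAA, and the TATA box as the 6 letters TATAAA. Each motif was counted on its own, so matches of different motifs may overlap. The ETS letters stood in 9 of the 27 promoters (33.3%) of the 21 matched genes that were higher in both assays. They stood in 6 of 61 promoters (9.84%) of the 46 matched genes called higher in neither, in 11.6% of 21263 promoters of protein-coding genes and in 8.86% of all 32851 promoters. The composite site stood in 1 of those 27 promoters, and in 3.6% of promoters of protein-coding genes. Of the other motifs, CCAAT stood in 48.1% of the 27, E-box in 7.41%, and CRE and TATA in 3.7% each. Members higher in only 1 assay stand in neither set. Some genes have several promoters, and those of Zfp346 overlap almost wholly, so promoters are not independent. The 21 genes were chosen by their calls, and they include Zfp948 and Zfp715, whose RNA passed the filter through HF libraries alone. ETS was 1 of several motifs searched, and its difference between the sets was not tested. Over all 118 promoters of Zfp genes, ETS was found in 16.1%, CCAAT in 39.8%, E-box in 4.24%, CRE in 3.39% and TATA in 8.47%. In promoters of protein-coding genes the shares were 38.2% for CCAAT, 7.84% for E-box, 2.23% for CRE and 12.6% for TATA. The median G and C content was 59.7% in promoters of Zfp genes, 56.3% in those of protein-coding genes and 52.7% in all promoters. The part of base content in these shares was not tested. A match is a string of letters, not a shown binding site.

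Zfp622, with 2275 counts in all, rose in both assays. It encodes a factor known, from its yeast relatives, for the late assembly of the large ribosomal subunit. Zfp622 lies at chr15:25984366-25998482. Its RNA reached 213, 196 and 243 CPM in HF cells, against 65.2, 59.2 and 41.0 CPM in control cells (log2 fold change 1.98, SE 0.17, adjusted p = 1.3e-15). In footprints it was at 256, 206 and 233 CPM in HF cells, against 106, 118 and 146 CPM in control cells (log2 fold change 0.96, SE 0.15, adjusted p = 6.3e-06). Both assays separated HF from control libraries, with a smaller gap in footprints. Zfp346, which encodes a zinc finger protein that binds double-stranded RNA, had RNA at 104, 139 and 147 CPM in HF cells, against 45.1, 19.7 and 25.2 CPM in control cells (log2 fold change 2.04, SE 0.23, adjusted p = 1.9e-11). Zfp346 footprints were at 40.0, 30.1 and 49.3 CPM in HF cells, against 12.2, 11.6 and 12.6 CPM in control cells (log2 fold change 1.71, SE 0.36, adjusted p = 0.00023). These values did not overlap between HF and control cells either. The Zfp346 gene overlaps Gm46415, a protein-coding gene.

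Among 13 members with known roles on RNA, ribosomes or ubiquitin, 7 were higher and 1 lower in RNA, and 8 were higher and 2 lower in footprints. Among all genes tested, 22.2% were higher and 21.4% lower in RNA, and 22.4% were higher and 20.9% lower in footprints. Their median log2 fold change was 0.42 in RNA and 0.64 in footprints. Zfp91, a ubiquitin ligase of the NF-kappaB pathway that overlaps Lpxn, rose modestly in RNA, with 299.9, 319 and 318 CPM in HF cells, against 223, 231 and 247 CPM in control cells (log2 fold change 0.42, SE 0.12, adjusted p = 0.0023). Zfp91 footprints were at 82.7, 78.6 and 114 CPM in HF cells, against 62.0, 55.8 and 36.5 CPM in control cells (log2 fold change 0.74, SE 0.22, adjusted p = 0.0069). HF libraries of Zfp91 lay above all control libraries in both assays. Zfp330, a nucleolar protein, had RNA at 48.4, 45.2 and 42.4 CPM in HF cells, against 20.1, 12.7 and 14.7 CPM in control cells (log2 fold change 1.47, SE 0.33, adjusted p = 0.0002). Zfp330 footprints were at 57.4, 33.5 and 45.5 CPM in HF cells, against 34.5, 11.6 and 15.5 CPM in control cells (log2 fold change 1.10, SE 0.34, adjusted p = 0.009), and here 1 control library lay inside the HF range. That footprint call was lost without RPF control replicate 2 (log2 fold change 0.77, adjusted p = 0.083) or without RPF HF replicate 1 (0.84, adjusted p = 0.12), and the value was 1.81 without RPF control replicate 1. Zfp326, part of the DBIRD complex that couples transcript elongation to splicing, had a log2 fold change of 1.00 in RNA (adjusted p = 0.014) and 1.00 in footprints (adjusted p = 0.00032). The RNA call of Zfp326 was lost without RNA HF replicate 2 (0.64, adjusted p = 0.21) or RNA control replicate 3 (0.80, adjusted p = 0.074).

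Zfp598, the ubiquitin ligase that marks collided ribosomes, was called in neither assay. Its RNA was at 120.5, 128 and 105 CPM in HF cells, against 117, 109.9 and 72.5 CPM in control cells (log2 fold change 0.23, SE 0.18, adjusted p = 0.31), and its footprints were at 56.3, 60.2 and 81.5 CPM in HF cells, against 44.2, 60.7 and 71.7 CPM in control cells (log2 fold change 0.17, SE 0.24, adjusted p = 0.58). HF and control libraries overlapped in both. Zfp593, whose yeast relative acts in ribosome assembly, had a log2 fold change of 0.30 in RNA (adjusted p = 0.43) and 0.28 in footprints (adjusted p = 0.46). Zfp706, among the members with the most counts, had RNA at 222, 146 and 223 CPM in HF cells, against 258, 217 and 230.0 CPM in control cells (log2 fold change -0.25, SE 0.13, adjusted p = 0.13), with overlap between the groups.

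Zfp207 had the most counts of all members, 4184, and was the 1 member lower in both assays. It encodes BuGZ, a protein of the mitotic spindle that binds Bub3. Its RNA was at 134, 125 and 133 CPM in HF cells, against 176, 207 and 236 CPM in control cells (log2 fold change -0.65, SE 0.14, adjusted p = 0.00014). Its footprints were at 359, 336 and 281 CPM in HF cells, against 431, 458 and 409 CPM in control cells (log2 fold change -0.40, SE 0.12, adjusted p = 0.0062). The HF libraries lay below every control library in each assay.

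The largest fall in RNA was that of Zfp395, known in human cells as a factor that binds the promoter of the Huntington disease gene. Zfp395 RNA was at 15.8, 5.89 and 5.89 CPM in HF cells, against 30.6, 39.5 and 44.1 CPM in control cells (log2 fold change -2.06, SE 0.42, adjusted p = 4.8e-05). All HF libraries were below the control libraries. In footprints it was at 11.3, 6.69 and 7.58 CPM in HF cells, against 15.8, 16.5 and 15.5 CPM in control cells and missed the threshold (log2 fold change -0.80, SE 0.48, adjusted p = 0.19), on 28 counts in HF cells and 77 in control cells. Zfp668, a regulator of p53 in human cells, had RNA at 7.04, 7.86 and 13.0 CPM in HF cells, against 23.3, 28.2 and 23.1 CPM in control cells (log2 fold change -1.36, SE 0.47, adjusted p = 0.014), and the call was lost without RNA HF replicate 1 (-1.16, adjusted p = 0.063). Its footprints were not called (log2 fold change 0.18, SE 0.47, adjusted p = 0.79).

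Zfp687 belongs to a chromatin complex with Zfp592, Zfp532 and Zmynd8, and its gene overlaps Pi4kb. Zfp687 RNA was at 34.3, 27.5 and 36.5 CPM in HF cells, against 66.0, 64.8 and 81.9 CPM in control cells (log2 fold change -1.10, SE 0.25, adjusted p = 0.00022). The groups did not overlap. Its footprints did overlap, at 38.8, 28.4 and 41.7 CPM in HF cells, against 37.7, 27.0 and 39.3 CPM in control cells (log2 fold change 0.09, SE 0.29, adjusted p = 0.82).

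The other genes that fell in RNA were Zfp275, Zfp64 and Zfp652. Zfp275 RNA was at 57.2, 64.8 and 54.7 CPM in HF cells, against 91.0, 81.8 and 113 CPM in control cells (log2 fold change -0.71, SE 0.21, adjusted p = 0.0038). Zfp64 RNA was at 26.4, 35.4 and 34.1 CPM in HF cells, against 48.3, 45.1 and 77.7 CPM in control cells (log2 fold change -0.83, SE 0.27, adjusted p = 0.0098). Their HF libraries lay below all control libraries, with a single high control library for Zfp64. That call for Zfp64 was lost without RNA control replicate 3 (-0.55, adjusted p = 0.17) or RNA HF replicate 1 (-0.68, adjusted p = 0.061). Zfp652, whose human counterpart represses transcription with CBFA2T3, was at 24.6, 33.4 and 40.6 CPM in HF cells, against 45.1, 66.2 and 67.2 CPM in control cells (log2 fold change -0.82, SE 0.27, adjusted p = 0.01), and this call too was lost without RNA control replicate 3 (-0.71, adjusted p = 0.057) or RNA HF replicate 1 (-0.62, adjusted p = 0.085). Zfp652 had too few footprints to be tested, and neither Zfp275 (log2 fold change 0.32, SE 0.32, adjusted p = 0.44) nor Zfp64 (log2 fold change -0.05, SE 0.43, adjusted p = 0.94) was called in footprints.

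In footprints, 110 of the 114 genes were tested, of which 45 were higher (40.9%) and 5 lower (4.55%) in HF cells. Over all 8373 protein-coding genes tested, 43.3% were called, 22.4% higher and 20.9% lower. Changes of at least 2-fold were called for 32 genes that were higher and 0 that were lower, against 11.8% and 10.3% of all genes tested. The median log2 fold change was 0.56 beside -0.02 over all genes tested, and values ran from -0.88 to 2.73, with 85 positive and 25 negative. HF libraries lay above all control libraries for 48 of the tested genes and below them for 7, where this held for 25.2% and 26.2% of all genes tested. Of the 110, 74 reached the filter's level in all 6 libraries, with 32 higher and 5 lower, and 1, Zfp672, called higher, reached it in no control library. Members under that level in some control libraries could reach the test through high HF values. The 5 lower genes were Zfp281, Zfp148, Zfp106, Zfp266 and Zfp207. Their number was 1 without RPF HF replicate 1 or RPF control replicate 2, and 3 without RPF HF replicate 3.

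Besides the genes given above, Zfp9, Zfp719, Zfp384 and Zfp748 had the largest rises in footprints. Zfp9 footprints were at 83.3, 60.2 and 43.6 CPM in HF cells, against 15.8, 11.0 and 5.62 CPM in control cells (log2 fold change 2.42, SE 0.33, adjusted p = 3.0e-07). Zfp719 footprints were at 69.8, 63.6 and 70.1 CPM in HF cells, against 14.2, 17.8 and 14.1 CPM in control cells (log2 fold change 2.13, SE 0.28, adjusted p = 2.2e-07). Zfp748 footprints were at 60.8, 43.5 and 19.0 CPM in HF cells, against 10.9, 11.0 and 8.43 CPM in control cells (log2 fold change 2.06, SE 0.38, adjusted p = 4.4e-05). In all 3 genes the HF libraries lay above every control library, with the widest HF spread in Zfp748. In RNA, Zfp9 had a log2 fold change of 1.82 (adjusted p = 7.8e-06) and 2.54 without RNA control replicate 3. Zfp719 had 1.68 in RNA (adjusted p = 0.00096), and 2.28 without RNA control replicate 2. Zfp748 had too few RNA counts to be tested. Zfp81 rose in RNA, with 17.6, 29.5 and 16.5 CPM in HF cells, against 1.61, 2.82 and 12.6 CPM in control cells (log2 fold change 1.88, SE 0.57, adjusted p = 0.0057). The third control library of Zfp81 was far above the others, and the log2 fold change was 3.27 without it. Those other control values lie under the filter's minimum of 9.15 CPM, so Zfp81 RNA needed its HF libraries to be tested. The call was lost without RNA control replicate 1 (1.34, adjusted p = 0.078) or RNA HF replicate 2 (1.60, adjusted p = 0.061). In footprints Zfp81 had 1.57 (adjusted p = 0.0016), and that call was lost without RPF HF replicate 1 (1.07, adjusted p = 0.11). Zfp871 rose on 2252 counts in all, with a log2 fold change of 1.24 in RNA (adjusted p = 1.1e-10) and 1.53 in footprints (adjusted p = 1.9e-09).

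Members with known roles at imprinted genes and retroelements were few. In footprints 3 of 5 were higher and 0 lower, where 22.4% of all genes tested were higher, and in RNA 1 of 4 was higher and 0 lower, where 22.2% of all genes were higher. Zfp809, which silences endogenous retroviruses and overlaps Zfp599, had footprints at 37.1, 31.8 and 39.8 CPM in HF cells, against 12.6, 5.52 and 8.43 CPM in control cells (log2 fold change 1.97, SE 0.40, adjusted p = 0.00016). Its RNA rested on 42 counts in HF cells and 7 in control cells and was not tested. Its footprints rested on 106 counts in HF cells and 46 in control cells. With 201 counts in all, the fewest of any member, Zfp809 became a member only through its high HF libraries. This limits its footprint test and the count of 3 higher members. Zfp445, which guards imprints and overlaps Zkscan7, had footprints at 89.5, 93.7 and 94.8 CPM in HF cells, against 47.4, 55.2 and 40.8 CPM in control cells (log2 fold change 0.92, SE 0.21, adjusted p = 0.00058). HF libraries lay above all control libraries for both genes. Zfp445 RNA was not called (log2 fold change 0.50, SE 0.47, adjusted p = 0.4). Zfp568, known to repress a placental promoter of Igf2, had RNA at 66.8, 76.6 and 57.1 CPM in HF cells, against 28.2, 35.2 and 23.1 CPM in control cells (log2 fold change 1.22, SE 0.27, adjusted p = 0.00012). Zfp568 footprints were at 29.3, 35.1 and 15.2 CPM in HF cells, against 12.6, 10.4 and 11.2 CPM in control cells (log2 fold change 1.23, SE 0.41, adjusted p = 0.016), a call lost without RPF HF replicate 1 (adjusted p = 0.081), RPF HF replicate 2 (adjusted p = 0.065) or RPF control replicate 2 (adjusted p = 0.063). Zfp57, the other guardian of imprints, had values that went the other way without a call. Zfp57 RNA was at 10.6, 11.8 and 25.9 CPM in HF cells, against 29.0, 40.9 and 12.6 CPM in control cells (log2 fold change -0.69, SE 0.42, adjusted p = 0.18), with overlap, and was called lower without RNA control replicate 3 (-1.03, adjusted p = 0.044). Its footprints were at 27.0, 15.1 and 28.4 CPM in HF cells, against 30.4, 34.3 and 32.3 CPM in control cells (log2 fold change -0.42, SE 0.32, adjusted p = 0.3).

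The silencing partners of KRAB proteins, which are no Zfp genes, were read in the same fits. Of 25 in the files, 9 were higher and 6 lower in RNA, where 22.2% and 21.4% of all genes tested were. In footprints 6 were higher and 7 lower, where 22.4% and 20.9% of all genes were, and the median log2 fold changes were -0.00 in RNA and 0.06 in footprints. Trim28, the scaffold that KRAB domains bind, averaged 397 ± 35.9 CPM in RNA of HF cells and 602 ± 60.6 CPM in RNA of control cells (SD, n = 3 each). Its footprints averaged 275 ± 48.7 CPM in HF cells and 775 ± 36.2 CPM in control cells (SD, n = 3 each). Trim28 fell in both, by 0.60 on the log2 scale in RNA (adjusted p = 1.3e-06) and by 1.49 in footprints (adjusted p = 1.9e-12). In translational efficiency, described below for the members, 1 of the 25 was higher and 7 lower, where 6.13% of all genes tested were higher and 8.23% lower, with a median log2 change of -0.27.

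Of 16 members known as regulators of transcription and chromatin, 4 were higher and 1 lower in RNA, and 4 were higher and 2 lower in footprints. The shares called higher lie near the 22.2% in RNA and 22.4% in footprints of all genes tested. Zfp131, which joins a BTB domain to its fingers, had RNA at 98.5, 87.4 and 84.2 CPM in HF cells, against 56.4, 22.6 and 35.7 CPM in control cells (log2 fold change 1.17, SE 0.24, adjusted p = 4.2e-05). Zfp131 footprints were at 111, 105 and 96.7 CPM in HF cells, against 42.6, 59.4 and 54.8 CPM in control cells (log2 fold change 1.04, SE 0.20, adjusted p = 0.00011). No HF library overlapped the control libraries in either. The Zfp131 gene overlaps Gm41077 and Gm46390. Zfp143, an activator of many housekeeping and small nuclear RNA promoters, was not called in RNA (log2 fold change -0.68, SE 0.48, adjusted p = 0.26) or in footprints (log2 fold change -0.05, SE 0.27, adjusted p = 0.9). Of 4 members with roles in mesenchyme and differentiation, 2 were higher in each assay, beside the same shares of all genes. These were Zfp110 and Zfp703, of which Zfp703 is a corepressor known in human breast cancer. Zfp703 RNA was at 160.1, 187 and 133 CPM in HF cells, against 97.4, 113 and 94.5 CPM in control cells (log2 fold change 0.65, SE 0.16, adjusted p = 0.00076), and its footprints were at 85.0, 102 and 119 CPM in HF cells, against 45.8, 32.5 and 36.5 CPM in control cells (log2 fold change 1.35, SE 0.22, adjusted p = 9.6e-06), both without overlap. Zfp516, which drives brown fat genes, was not called in RNA (log2 fold change 0.38, SE 0.21, adjusted p = 0.13) or footprints (log2 fold change 0.47, SE 0.31, adjusted p = 0.23), nor was Zfp369 in RNA (log2 fold change 0.23, SE 0.52, adjusted p = 0.75) or footprints (log2 fold change -0.13, SE 0.44, adjusted p = 0.83). Zfp423 had 0 counts in all libraries, and Zfp365 with 161 counts was below the minimum.

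Set side by side, 25 members were higher in both assays and 1 lower in both. The 25 include Zfp948 and Zfp715, which passed the RNA filter through HF libraries alone, so their RNA calls are not read as tests. A further 15 were higher in footprints with no call in RNA, 9 were higher in RNA with no call in footprints, and 5 were lower in RNA with no call in footprints. Across the 101 members tested in both, the RNA and footprint fold changes had a Pearson r of 0.65 and a Spearman rho of 0.58, where 7921 protein-coding genes had 0.71 and 0.66. Genes are not independent replicates, and the points share their libraries. Zfp281 was the 1 member called higher in RNA and lower in footprints.

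**Figure D4:**
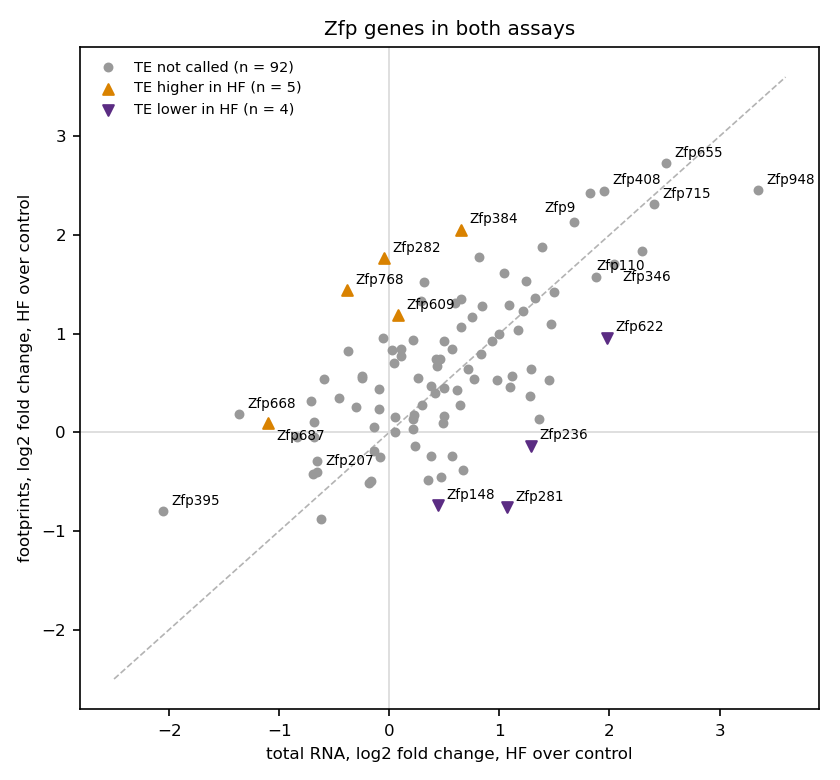
Log2 fold change of HF over control in footprints against that in total RNA for the 101 Zfp genes tested in both, with equal change marked by the diagonal. Genes called higher (5) or lower (4) in translational efficiency are coloured, and Zfp281 lies at positive RNA and negative footprint change.

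Translational efficiency (TE), footprints relative to RNA, was tested in 1 model over all 12 libraries, by the term that lets the treatment effect differ between assays. Of 101 members tested, 5 were higher and 4 lower in HF cells, which is 4.95% and 3.96%, against 6.13% and 8.23%, or 14.4% in either direction, of all 7926 genes tested. All 9 changed by at least 2-fold, where 3.15% of all genes tested were called higher and 4.97% lower at that size. The median log2 change in TE was 0.18, beside 0.00 over all genes tested. The SE of the change had a median of 0.49 in members and 0.36 over all genes tested. Small changes thus reached a call less readily in members, which limits the comparison of these shares. The number called higher was 1 without RNA HF replicate 2, 2 without RNA HF replicate 3 or RNA control replicate 3, and 3 without RNA HF replicate 1, RNA control replicate 1, RPF control replicate 2 or RPF HF replicate 2. Without RPF HF replicate 1, 8 were higher and 2 lower. Of the 9 calls, 6 were lost in at least 2 of the 12 omissions of a library, and those of Zfp281, Zfp282 and Zfp622 were kept in all 12.

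Zfp281 fell most in TE. It encodes a factor that binds GC-rich promoters and is known for its part in leaving pluripotency, and it lies at chr1:136624901-136630391. Zfp281 RNA was at 51.0, 46.2 and 41.2 CPM in HF cells, against 29.0, 16.9 and 17.9 CPM in control cells (log2 fold change 1.07, SE 0.31, adjusted p = 0.0039). In footprints it was at 34.9, 26.8 and 45.5 CPM in HF cells, against 59.6, 61.3 and 57.6 CPM in control cells (log2 fold change -0.75, SE 0.25, adjusted p = 0.016). Every HF library was above the controls in RNA and below them in footprints. The change in TE was -1.81 on the log2 scale (SE 0.40, adjusted p = 0.001). The footprint call was lost without RPF HF replicate 1 (adjusted p = 0.057), RPF HF replicate 2 (adjusted p = 0.06) or RPF control replicate 2 (adjusted p = 0.052). Zfp148, its close relative, which also binds GC-rich DNA, had RNA at 40.5, 84.5 and 65.9 CPM in HF cells, against 39.5, 42.3 and 58.8 CPM in control cells (log2 fold change 0.44, SE 0.25, adjusted p = 0.16), with overlap, and passed the threshold without RNA HF replicate 1 (0.71, adjusted p = 0.026). Zfp148 footprints were at 38.3, 48.5 and 37.9 CPM in HF cells, against 64.5, 79.7 and 59.0 CPM in control cells (log2 fold change -0.74, SE 0.24, adjusted p = 0.012), without overlap, and its TE fell as well (log2 fold change -1.17, SE 0.36, adjusted p = 0.021). The footprint call of Zfp148 was lost without RPF HF replicate 1 (adjusted p = 0.068) or RPF control replicate 2 (adjusted p = 0.09). Its TE call was lost in 5 of the 12 omissions, without RNA HF replicate 2 or 3, RNA control replicate 1, RPF HF replicate 1 or RPF control replicate 2.

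Zfp236 and Zfp622 had the other falls in TE. Zfp236 RNA was at 119, 139.5 and 114 CPM in HF cells, against 41.1, 50.7 and 60.9 CPM in control cells (log2 fold change 1.29, SE 0.20, adjusted p = 2.2e-07), with HF above control in every library. Its footprints overlapped, at 14.6, 26.8 and 13.3 CPM in HF cells, against 11.4, 26.4 and 22.5 CPM in control cells (log2 fold change -0.14, SE 0.44, adjusted p = 0.83). The TE change of Zfp236 was -1.41 (adjusted p = 0.017) and was not called without RPF HF replicate 1 (-1.17, adjusted p = 0.09) or RPF control replicate 2 (-1.05, adjusted p = 0.13). For Zfp622 the rise in RNA exceeded that in footprints, and TE fell (log2 fold change -1.01, SE 0.24, adjusted p = 0.0022). Zfp106, an RNA-binding protein needed in motor neurons and muscle, and Zfp266 fell in footprints with no call in TE. Zfp106 footprints were at 74.8, 107 and 77.7 CPM in HF cells, against 96.9, 126 and 149 CPM in control cells (log2 fold change -0.51, SE 0.20, adjusted p = 0.035), with overlap, and Zfp266 footprints were at 72.6, 98.7 and 70.1 CPM in HF cells, against 109.9, 120.1 and 104 CPM in control cells (log2 fold change -0.50, SE 0.19, adjusted p = 0.032), without overlap. Each of these calls was lost in 4 of 6 omissions. For Zfp106 these were RPF HF replicate 1 or 3 and RPF control replicate 2 or 3, with adjusted p up to 0.20. For Zfp266 they were RPF HF replicate 1 or 3 and RPF control replicate 1 or 2, with adjusted p up to 0.15.

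Zfp282 had the clearest rise in TE. Its RNA was at 56.3, 66.8 and 43.0 CPM in HF cells, against 53.1, 57.8 and 58.8 CPM in control cells (log2 fold change -0.05, SE 0.24, adjusted p = 0.89), with overlap. Its footprints were at 44.5, 85.3 and 45.5 CPM in HF cells, against 18.2, 17.2 and 12.6 CPM in control cells (log2 fold change 1.77, SE 0.32, adjusted p = 3.4e-05), with every HF library above the controls. TE rose by a log2 change of 1.81 (SE 0.40, adjusted p = 0.00092). Zfp384, a nuclear matrix factor that binds promoters of matrix metalloproteinase genes, followed with footprints at 36.0, 56.9 and 47.4 CPM in HF cells, against 11.4, 6.74 and 16.9 CPM in control cells (log2 fold change 2.05, SE 0.37, adjusted p = 3.9e-05). Its RNA was at 47.5, 48.1 and 54.7 CPM in HF cells, against 20.9, 35.2 and 42.0 CPM in control cells and just missed the threshold (log2 fold change 0.65, SE 0.28, adjusted p = 0.055), which it passed without RNA control replicate 3 (0.90, adjusted p = 0.022). Neither assay had overlap for Zfp384. Its TE change of 1.41 (adjusted p = 0.032) was lost in 8 of 12 omissions, all but RNA control replicate 1, RPF HF replicate 1, RPF HF replicate 3 and RPF control replicate 3.

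Zfp768, Zfp609 and Zfp687 complete the genes higher in TE. Zfp768 footprints were at 20.8, 36.8 and 17.1 CPM in HF cells, against 12.2, 5.52 and 8.43 CPM in control cells (log2 fold change 1.44, SE 0.47, adjusted p = 0.013). Its RNA was at 16.7, 18.7 and 18.8 CPM in HF cells, against 29.0, 22.6 and 18.9 CPM in control cells (log2 fold change -0.39, SE 0.40, adjusted p = 0.45). HF footprints lay above all controls while RNA was not called. Control footprints of 5.52 and 8.43 CPM lie under the filter's minimum of 8.73 CPM, so Zfp768 needed its HF libraries to be tested. The footprint call was lost without RPF HF replicate 2 (1.10, adjusted p = 0.092) or RPF control replicate 2 (1.16, adjusted p = 0.078), and the TE change of 1.82 (adjusted p = 0.032) was lost in 7 of 12 omissions, all but RNA control replicate 2 or 3, RPF HF replicate 1 or 3 and RPF control replicate 1. Zfp609 encodes a partner of the cohesin loader Nipbl and the Integrator complex. Zfp609 footprints were at 30.4, 38.5 and 49.3 CPM in HF cells, against 11.8, 22.1 and 16.9 CPM in control cells (log2 fold change 1.19, SE 0.36, adjusted p = 0.0072), and the call was lost without RPF control replicate 1 (0.90, adjusted p = 0.071). Its RNA was at 138, 100.2 and 106 CPM in HF cells, against 114, 97.3 and 113 CPM in control cells (log2 fold change 0.08, SE 0.17, adjusted p = 0.75). HF footprints were above all controls and RNA overlapped. The TE change of Zfp609, 1.10 (adjusted p = 0.027), was lost in 7 of 12 omissions, all but RNA HF replicate 1, RNA control replicate 2, RPF HF replicate 1 and RPF control replicate 2 or 3. For Zfp687 the fall in RNA had no counterpart in footprints, with a TE change of 1.20 (adjusted p = 0.025). That call was lost without RNA HF replicate 2, RNA control replicate 3, RPF HF replicate 1 or RPF control replicate 2. Zfp275 had a like pattern just short of a call (log2 fold change 1.04, SE 0.37, adjusted p = 0.053), and it passed without RPF HF replicate 1, RPF HF replicate 2, RPF control replicate 2 or RPF control replicate 3.

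**Figure D5:**
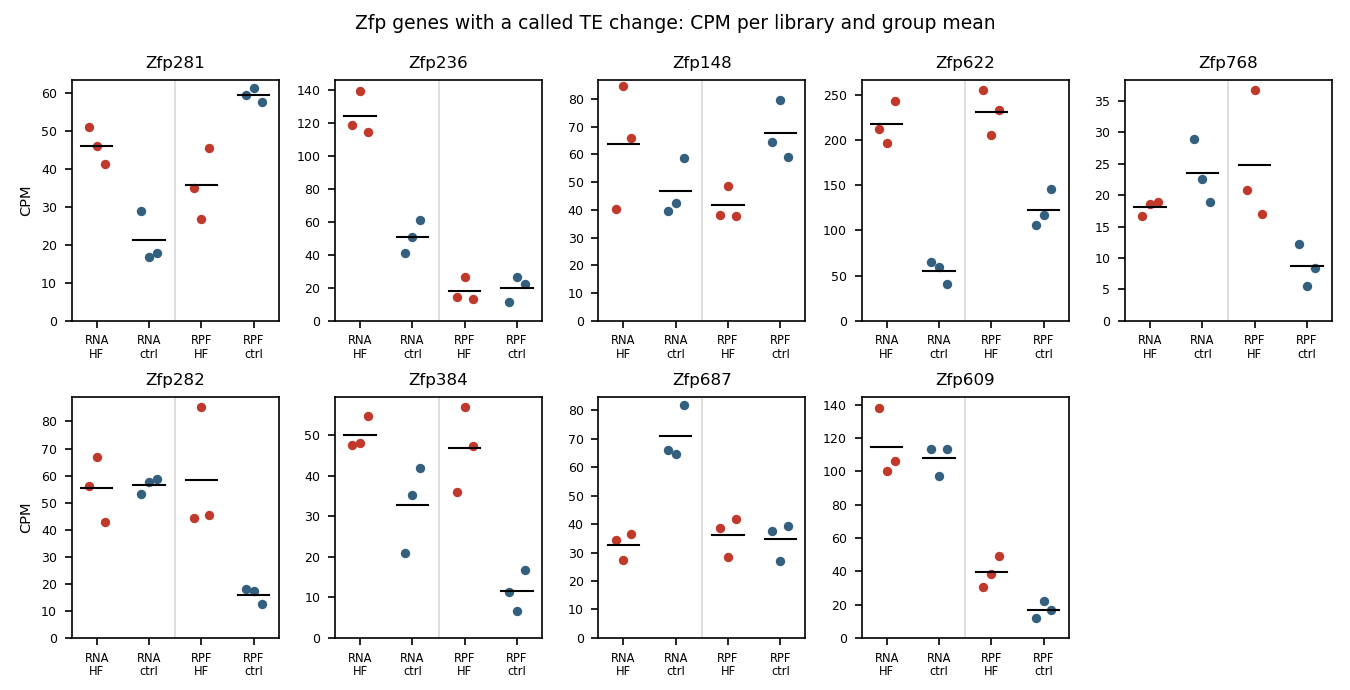
Level in CPM of the 9 Zfp genes called in translational efficiency, in each library of total RNA and footprints, with HF to the left of control and a line at each mean of 3. In Zfp281 the HF libraries lie above control in RNA and below control in footprints; in Zfp282 and Zfp609 RNA overlaps while footprints lie above control.

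Within a condition, the log2 ratio of mean footprint CPM to mean RNA CPM had a median of -0.12 in HF cells and -0.53 in control cells over the 101 members tested in both assays. Over protein-coding genes tested in both, the medians were 0.11 in HF cells and 0.10 in control cells. Footprints and RNA cover different stretches of an mRNA, and the ratio moves with the genes that fill each library, so it is a description of these libraries.

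The members lie on 19 chromosomes, with 22 of them on chromosome 7. Of these 22, 6 were higher and 1 lower in RNA, and 9 were higher and 0 lower in footprints, where 22.2% and 22.4% of all genes tested were higher in RNA and footprints. All 3 members on chromosome 1 were higher in RNA, and in footprints 2 of them were higher and 1 lower. Of the 4 members on chromosome 4, 0 were higher in RNA and 1 in footprints. Zfp655 shares chromosome 5 with 8 other members, of which 4 were higher in RNA. In all, 46 members overlap another annotated gene and 19 of these overlap a protein-coding gene. Zfp346, Zfp131 and Zfp706 are among the 19. The sources used here do not give the use of strand, so reads of overlapping genes cannot be told apart.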

How the data were processed

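Total RNA and ribosome footprints of mouse embryonic fibroblasts, with and without HF, were read in 12 libraries. The authors deposited whole-number counts per gene for each library, without normalization. Per the submitters' processing notes the tools were Bowtie, HISAT2 and HTSeq, with no versions, and the build was GRCm38. The sources used here do not state the counted feature, strand use or treatment of multiply mapping reads. IDs were matched to symbols for 55450 of 55536 and to a RefSeq gene type for 38652; 0 entries named no gene and 0 columns belonged to no sample.

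Tests used R 4.3.3 and edgeR 4.0.16 (quasi-likelihood, TMM factors, filterByExpr with a minimum count of 10, Benjamini-Hochberg adjustment, threshold 0.05). RNA was tested over all genes, footprints over protein-coding genes and TE as an interaction over genes that passed the filter in both assays. SE is the fold change divided by the root of F. CPM were computed here from the deposited counts. The scripts were checked on simulated counts that gave all genes a common spread and lacked the excess of even counts seen here.

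Members and gene lists were chosen with earlier results of these data known. Named genes were the 8 highest and 8 lowest fold changes in RNA and in footprints, among called members without overlap between groups and with at least 60 counts in the assay, the 4 highest and 4 lowest in TE, the 6 with the most counts, the 3 on each side of the minimum, 12 set genes and up to 4 of each list. The alternatives were other factors (RLE, upper quartile), DESeq2 1.42.0, no filter, a replicate block, leaving out Gm42418 and mitochondrially encoded genes, halved counts, a minimum of 400 counts, and leaving out each library. The omission of RPF HF replicate 3 with RNA control replicate 2, the smallest library of each kind, was added after seeing the data. Deviations of same-numbered libraries had correlations of 0.00 to 0.07, and those of unlike numbers -0.07 to 0.04. Such weak correlations cannot decide whether the numbers mark a shared culture or day. The labels do not say so, and no pairing was used in the main tests. Protein features were not analysed here.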

Additional observations from a re-analysis of the deposited data

How the results depend on the processing

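Of 2005 alternatives for the named genes, 0 reversed the direction of a called value, 73 lost a call and 15 gained one. The members called higher numbered 30 to 36 in RNA and 34 to 45 in footprints when each library was left out in turn, and those called lower numbered 4 to 8 and 1 to 5. In TE 1 to 8 were higher and 2 to 5 lower. Median log2 changes over the same omissions were 0.43 to 0.54 in RNA, 0.54 to 0.73 in footprints and 0.081 to 0.22 in TE. With a minimum of 400 counts, 58 members remained for the test; 4 were called lower in RNA with a median of 0.63, 29 higher in footprints with a median of 0.60, and the TE median was 0.025. Fewer genes stand behind these counts by construction. Upper-quartile factors gave a footprint median of 0.48 beside -0.10 over all genes, the largest shift of all genes in any scaling. DESeq2 called 3 members lower in footprints, with Zfp106 and Zfp266 lost, and so did leaving out RPF HF replicate 3 with RNA control replicate 2. With counts halved the TE median was -0.0067 over 69 members. Without Gm42418 and mitochondrially encoded genes the ratio of footprints to RNA had medians of -0.35 in HF cells and -0.75 in control cells, as RNA library totals shrink. The cause of the other shifts was not tested. With the replicate block 34 members were higher and 7 lower in RNA, 44 higher and 5 lower in footprints and 4 higher and 4 lower in TE; the TE calls of Zfp384 and Zfp768 were lost and Zfp275 was gained. The labels do not say what libraries of the same number share, so this block is no known pairing. Many members had under 10 counts in a library, which limits the precision of their fold changes. The planned protein features were not run.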

Other observations

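The Zfp genes below 200 counts were mostly too low to test. In footprints 37 of the 249 were tested, of which 15 were higher and 0 lower in HF cells, where 22.4% of all genes tested were higher and 20.9% lower. Their median log2 fold change was 1.10. In RNA 33 were tested, of which 5 were higher and 5 lower, with a median of -0.17, and in TE edgeR called 0 of 15 (3 at an unadjusted p under 0.05; DESeq2 was not read for these genes). A gene with so few counts passed the filter more easily where its level was high, so these counts carry that choice.

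Other C2H2 families were read in the same fits, where 22.2% of all genes tested were higher and 21.4% lower in RNA, and 22.4% higher and 20.9% lower in footprints. Zbtb genes, which join a BTB domain to their fingers, had 10 of 28 tested higher and 4 lower in RNA (median log2 fold change 0.49). In footprints 8 of 16 were higher and 0 lower (median 0.67). Zscan and Zkscan genes, which carry a SCAN domain, had 4 of 11 higher and 0 lower in RNA (median 0.29), and 4 of 9 higher and 0 lower in footprints (median 0.88).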
